A study of Homo sapiens with 12 samples.

Results

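Vimentin, fibronectin, S100A4 and 6 further genes that mark mesenchymal cells and their matrix were followed across RNA libraries of HCT116 cells treated with siRNAs against NFYA. The 9 genes are VIM, FN1, S100A4, ZEB1, SNAI2, TGFBI, CDH2, LGALS1 and ITGA5, chosen by symbol from the 63677 gene identifiers of the count table. VIM, FN1 and S100A4 were picked partly because they had changed in these same libraries, so their values are given as a description, with fold changes and standard errors but no test. The other 6 were tested where they had enough reads. Of the 9 genes, 8 passed the filter on low counts, and CDH2 did not.

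HCT116 cells are an established human line with epithelial shape, grown from a carcinoma of the colon. NFYA encodes the DNA-contacting subunit of the CCAAT-binding factor NF-Y. The 12 libraries of polyadenylated RNA formed 6 groups of 2 cultures each, described by the submitters as biological duplicates. Mock cultures were transfected without siRNA, and siControl cultures received a non-targeting siRNA. The siTotal1 and siTotal2 cultures each received 1 of 2 siRNAs to sequence common to all NFYA transcripts, and siLong1 and siLong2 each received 1 of 2 siRNAs aimed at NFYA transcripts whose 3′ untranslated region is the longest. All siRNAs were given at 62.5 nM and cultures were collected 72 h later. The siRNAs were thus aimed at the long form or at NFYA as a whole. How far each group can be read that way is limited by the NFYA reads given below. The p-values rest on the spread between cultures within groups, estimated over all groups together, not on the spread between siRNA sequences.

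Epithelial cells are held together by E-cadherin junctions and keratin filaments. In an epithelial-mesenchymal transition, zinc-finger repressors such as ZEB1 and SNAI2 bind E-box sequences and lower epithelial genes, while vimentin filaments, fibronectin matrix, its integrin receptor and N-cadherin appear. HCT116 is known as a line with E-cadherin junctions and little vimentin, and in colon tissue most vimentin and fibronectin RNA comes from the stroma.

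The siRNA sequences define the treated groups and are shown here as the sense strands in the order in which the labels list them. The labels do not say which sequence carries number 1. Capitals mark sense bases 12 to 18, which pair with bases 2 to 8 of the antisense strand, its seed.
siTotal, first listed: acuagaggcagAAGGGAAa
siTotal, second listed: uggugaaggugGACGAUUu
siLong, first listed: agugaucauugUAGGGUAa
siLong, second listed: ggucauuccuuUAGCAUCa

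Library totals ran from 35604197 to 49746637 reads. Levels below are CPM, a gene's reads divided by the library's size, with sizes adjusted by the trimmed mean of M-values (TMM). NFYA, the targeted gene, held 1661 to 1808 reads in the siTotal libraries, 1688 and 1756 in siLong1, 2185 and 2134 in siControl and 2783 and 2457 in mock. These are reads not scaled to library size. The siLong1 reads lay within the siTotal range, at like library totals (35758539 to 38246541 in siTotal, 35761584 and 38023177 in siLong1). Both kept most of the reads seen in siControl. By these reads siTotal and siLong1 are not set apart as loss of all NFYA and loss of the long form. The mock totals were larger, at 49746637 and 41649949 against 37529087 and 37358606 in siControl, so the reads do not place mock above siControl. The libraries labelled siLong2 held 2503 and 2478 NFYA reads, above siControl in spite of smaller library totals, so they go against that label, although a count per gene does not measure the long form by itself. The siLong means below include these libraries, and so does every direction read from such a mean. Epithelial genes were high in every library, with 55370 to 101848 reads of KRT8, 5868 to 12266 of EPCAM and 2012 to 3866 of CDH1, while intestinal markers were mixed: CDX2 held 534 to 859 reads and KRT20 18 to 204, and CDX1, VIL1, CDH17 and LGALS4 reached at most 12 in any library.

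Markers of fibroblasts stood apart in 4 libraries, which bears on any gene that fibroblasts also express. DCN, the matrix proteoglycan decorin, held 106 reads in mock replicate 1, 92 and 51 in the siTotal2 libraries and 39 in replicate 2 labelled siLong2, and 0 to 2 reads in the other 8 libraries. COL1A2 held 158, 43, 16 and 18 reads in those 4 libraries and 0 to 3 elsewhere, and COL3A1 held 97, 40, 22 and 16. COL1A1 was high throughout, at 25.9 to 41.7 CPM. Without COL1A1, the remaining 8 of the 9 fibroblast markers summed to 9.20 CPM in mock replicate 1 against 0.554 CPM in replicate 2, to 6.09 and 3.01 CPM in siTotal2 and to 2.80 CPM in replicate 2 labelled siLong2, against 0.210 to 0.903 CPM in the other libraries. With COL1A1 the sum ran from 26.4 to 46.2 CPM in mock, 34.0 to 35.4 in siControl, 27.3 to 31.4 in siTotal1, 43.0 to 44.8 in siTotal2, 30.1 to 34.7 in siLong1 and 36.5 to 38.7 in the libraries labelled siLong2. Of 5 endothelial markers PECAM1 was at 0 reads in every library, CDH5 held at most 1, TEK at most 10, KDR 1 to 18 and VWF 15 to 46. VWF rose against siControl in siTotal (0.89, adjusted p = 0.0209) and in siLong (0.94, adjusted p = 0.0108) by edgeR's test, and its part in the results below was not tested. The list summed to 0.736 to 1.63 CPM, and the 6 blood markers summed to at most 0.585 CPM. Where the 4 libraries with 39 or more DCN reads are left out below, siTotal is siTotal1 alone, mock is replicate 2 alone and siLong2 is replicate 1 alone, so the siRNA changes together with the DCN reads. A group left with 1 library, there or where a single library is left out, is assumed to vary like the other groups, which give the spread. In bulk RNA, fewer cells of a type and less RNA per cell cannot be told apart.

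**Figure D1:**
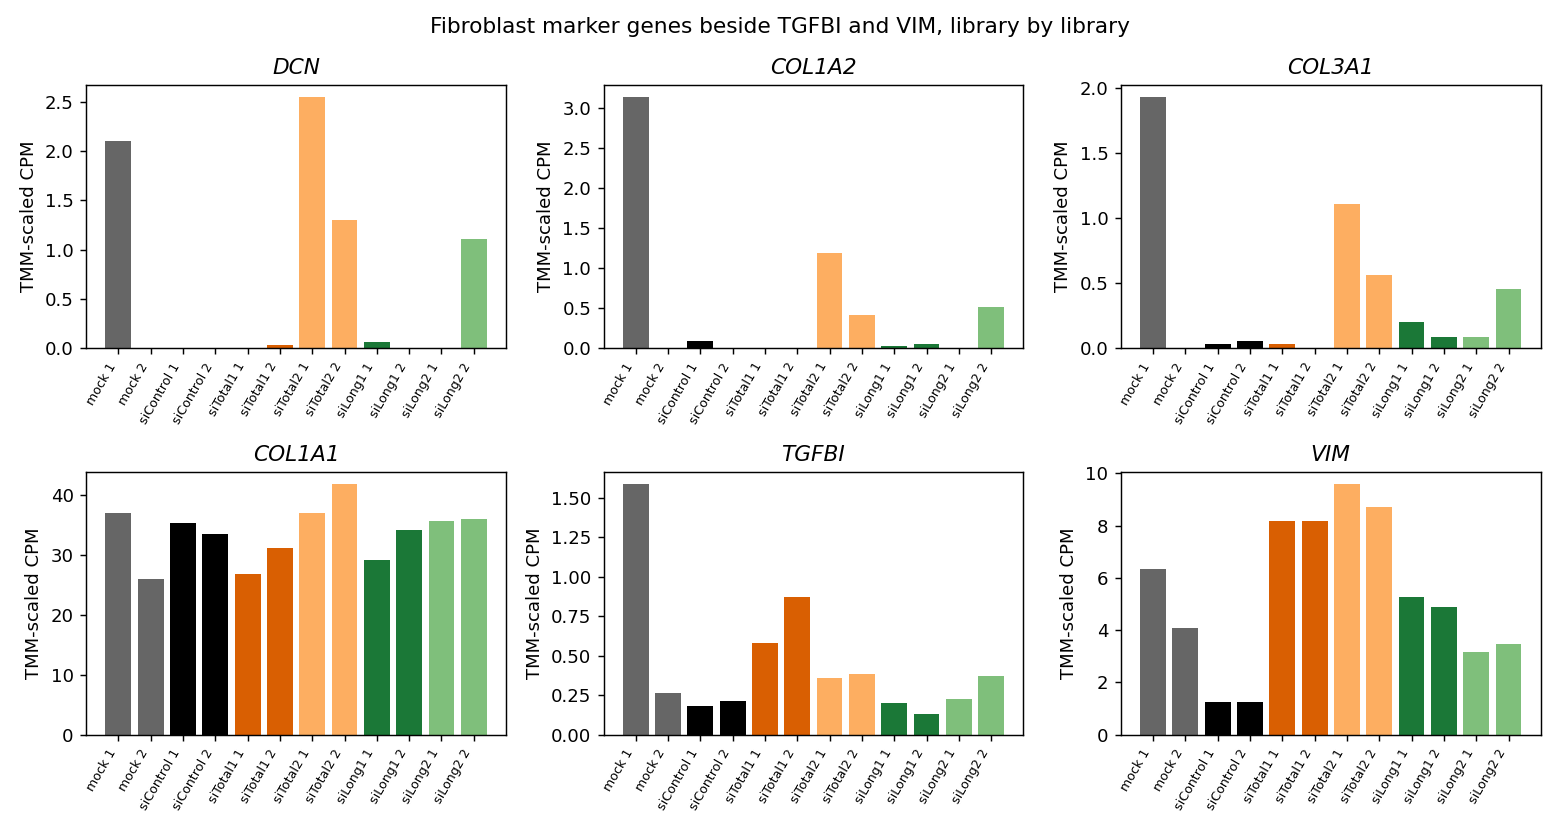
TMM-scaled CPM (vertical axes, from 0) of 4 fibroblast marker genes, TGFBI and VIM in each of the 12 libraries (bars, colored by group). DCN, COL1A2 and COL3A1 rise above their near-zero level in mock replicate 1, both siTotal2 libraries and replicate 2 labelled siLong2, TGFBI peaks in mock replicate 1, and VIM is lowest in siControl, at 8.16 and 8.18 CPM in siTotal1 and higher, at 9.58 and 8.70 CPM, in siTotal2.

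VIM encodes vimentin, the intermediate filament protein of mesenchymal cells (ENSG00000026025, chromosome 10, 17228259 to 17237593 on GRCh38, plus strand). It stood at 6.35 and 4.09 CPM in mock, 1.26 and 1.24 in siControl, 8.16 and 8.18 in siTotal1, 9.58 and 8.70 in siTotal2, 5.25 and 4.90 in siLong1, and 3.17 and 3.45 in the libraries labelled siLong2. The siControl libraries were lowest, with 48 and 46 VIM reads, and the siTotal libraries highest. In order of level the groups ran siControl, siLong2, siLong1, mock, siTotal1, siTotal2, and of these neighbours only siLong1 and mock overlapped. Against siControl, VIM was 6.89-fold higher in siTotal (log2 2.79, SE 0.16), 3.27-fold higher in siLong (log2 1.71, SE 0.18) and 4.21-fold higher in mock (log2 2.07, SE 0.18). These 3 comparisons share the siControl libraries. Against mock, the siTotal mean was higher by log2 0.71 (SE 0.12) and the siLong mean lower (log2 -0.36, SE 0.13). Without mock replicate 1 these became 1.07 and 0.00101, so the second difference rests on that library, whose fibroblast markers are given above. Their part in it was not tested. Against siControl, leaving out the 4 libraries rich in DCN gave 2.71 for siTotal (siTotal1 alone), 1.68 for siLong and 1.71 for mock (1 library). The 2 siTotal siRNAs differed by -0.16 (SE 0.13) and the 2 siLong siRNAs by 0.61 (SE 0.16), higher in siLong1. The antisense gene VIM-AS1, which overlaps the start of VIM, held 3 to 26 reads, lowest in siControl replicate 2 and in replicate 2 labelled siLong2. Whether reads were counted by strand is unknown, so the 2 genes cannot be separated where they overlap.

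FN1 encodes fibronectin, a matrix glycoprotein that integrins bind (ENSG00000115414, chromosome 2, 215360440 to 215436172, minus strand). It stood at 31.25 and 29.03 CPM in mock, 32.0 and 29.7 in siControl, 64.5 and 59.0 in siTotal1, 53.3 and 55.9 in siTotal2, 33.7 and 33.2 in siLong1, and 50.4 and 47.4 in the libraries labelled siLong2. Unlike VIM, FN1 lay at the same level in both controls, whose libraries overlapped, and every siTotal library was above every library of the other 4 groups. Against siControl it was 1.88-fold higher in siTotal (log2 0.91, SE 0.05) and 1.31-fold higher in siLong (log2 0.39, SE 0.05), with mock at -0.03 (SE 0.06). Against mock the values were 0.94 (SE 0.05) for siTotal and 0.42 (SE 0.05) for siLong. The siLong mean joined unlike groups: siLong1 alone was at 0.11 against siControl and the libraries labelled siLong2 at 0.66, a difference of -0.55 (SE 0.06) between them. In the direct comparison FN1 was higher in siTotal than in siLong by 0.52 (SE 0.04), by 0.80 with siLong1 alone and by 0.25 with the libraries labelled siLong2 alone. With siTotal1 alone, the group that remains when the DCN libraries are left out, the difference from siControl was 1.00.

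The FN1 promoter is a textbook case of a CCAAT box beside a cyclic AMP response element, so it is printed for the factor under study. RefSeq promoter windows of 300 bases (250 before to 50 after a start site, GRCh38.p14) were found for 7 of the 9 genes. The word CCAAT was searched on both strands, with TGACGTCA, the response element, beside it. FN1 and CDH2 held CCAAT, and windows of VIM, S100A4, ZEB1, TGFBI and ITGA5 did not. Among all 35116 windows given, 34.6% held CCAAT on either strand, 1.85% held TGACGTCA and 0.772% held both. The stretches below are written along the gene's strand, with capitals for the matched words (ATTGG is CCAAT on the other strand).
FN1, chr2:215436225-215436254, minus strand: ccgTGACGTCAcccggagcccgggCCAATc
CDH2 first window, chr18:28177189-28177218, minus strand: agctcgctctccATTGGcggggagcggaga
CDH2 second window, chr18:28036691-28036720, minus strand: tgtttgagccacCCAATctctgttttgctg
In FN1 the response element begins 183 bases and the CCAAT word 162 bases before the start site of the RefSeq window. SNAI2 and LGALS1 had no window. Of the 7 genes with a window 2 held CCAAT, beside the 34.6% of all windows. A part of these words in the levels of the genes was not tested. A match is a description of letters, and NF-Y binding was not measured.

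**Figure D2:**
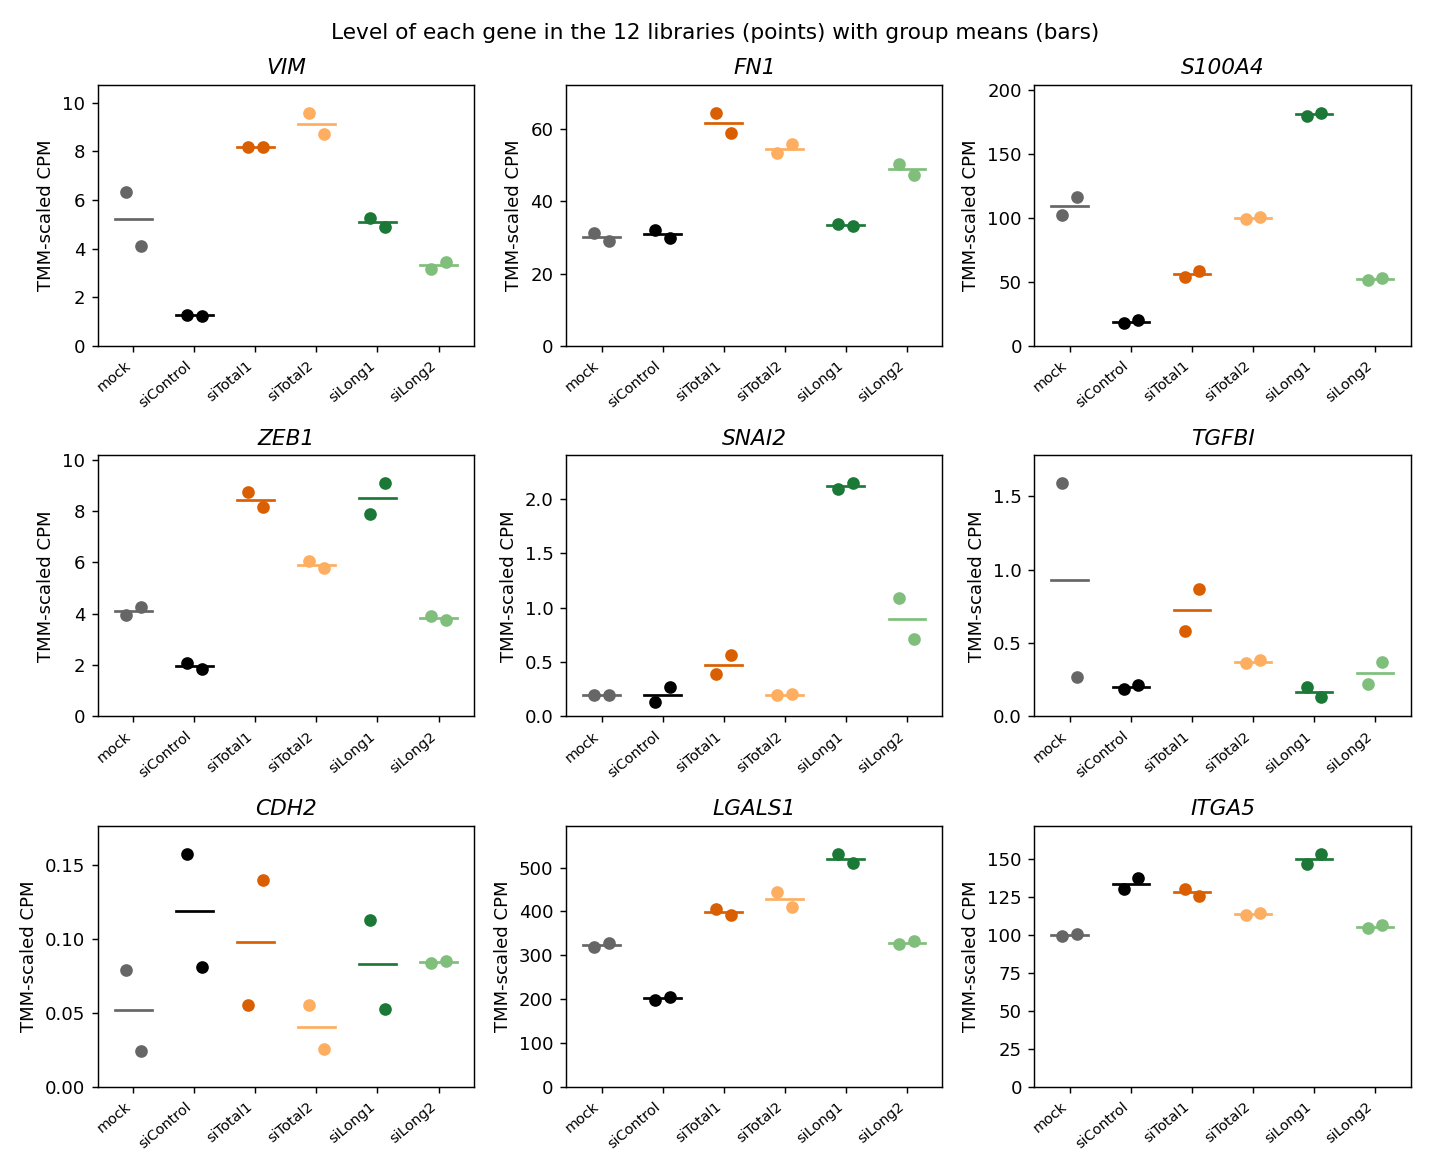
TMM-scaled CPM (vertical axes, from 0, a scale per gene) of the 9 genes in the 6 groups, with 2 libraries per group as points and the mean as a bar. VIM, S100A4, ZEB1 and LGALS1 are lowest in siControl, FN1 is level between mock and siControl at about 30 CPM, SNAI2 is highest in siLong1, and TGFBI is high in mock replicate 1 alone.

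TGFBI encodes a secreted matrix protein induced by TGF-beta (ENSG00000120708, chromosome 5, 136028895 to 136063818). Its reads were few: 80 and 11 in mock, 7 and 8 in siControl, 21 and 31 in siTotal1, 13 and 15 in siTotal2, 7 and 5 in siLong1, and 8 and 13 in the libraries labelled siLong2. Mock replicate 1 stood alone at 1.59 CPM, against 0.265 in mock replicate 2, and was also the library with most DCN reads, whose part in the TGFBI values was not tested. In edgeR's quasi-likelihood test TGFBI fell by 2.12 in siLong against mock (SE 0.66, adjusted p = 0.0268). Without mock replicate 1 the value was -0.26 (adjusted p = 0.747), with 1 mock library left and the spread taken from the other groups. Both siTotal1 libraries (0.583 and 0.869 CPM) were above both siControl libraries (0.184 and 0.216). The fit over all libraries put siTotal at 1.37 against siControl (SE 0.85, adjusted p = 0.241). With the 4 DCN libraries left out, which leaves siTotal1 alone, it was 1.85. In that fit TGFBI passed the filter through its reads in siTotal1, so its passing is not independent of that rise. With siTotal1 alone and all libraries in the fit the TGFBI value was 1.84 (adjusted p = 0.137). For siTotal with both siRNAs, leaving out 1 mock library gave 1.35 (replicate 1) or 1.36 (replicate 2).

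ITGA5, the alpha chain of the main fibronectin receptor, was the only one of the 8 genes that was lower against siControl in siTotal, siLong and mock alike and passed the test in each (ENSG00000161638, chromosome 12, 54395261 to 54419460, minus strand). It stood at 99.1 and 100.6 CPM in mock, 129.7 and 137.2 in siControl, 130.2 and 125.7 in siTotal1, 112.9 and 114.1 in siTotal2, 146.4 and 153.1 in siLong1, and 104.5 and 106.0 in the libraries labelled siLong2. The order ran mock, siLong2, siTotal2, siTotal1, siControl, siLong1, and only siTotal1 and siControl overlapped. The fall was 0.42 in mock (SE 0.04, adjusted p = 2.53e-10), 0.15 in siTotal (SE 0.04, adjusted p = 0.00104) and 0.09 in siLong (SE 0.04, adjusted p = 0.0406), while against mock both siTotal (0.27, adjusted p = 3.67e-07) and siLong (0.33, adjusted p = 1.50e-09) were higher. The siTotal fall was not called with siTotal1 alone (-0.06, adjusted p = 0.260; leaving out the DCN libraries makes the same comparison) or without siControl replicate 2 (-0.12, adjusted p = 0.0605). The siLong fall turned to a rise with siLong1 alone (0.17, adjusted p = 9.20e-04), and it was not called with DESeq2 (adjusted p = 0.117) or without siControl replicate 2 (-0.05, adjusted p = 0.413). The 2 siLong siRNAs differed by 0.51 (SE 0.04, adjusted p = 1.20e-12).

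CDH2 encodes N-cadherin, the adhesion protein that mesenchymal cells carry in place of E-cadherin (ENSG00000170558, chromosome 18, 27950966 to 28177446, minus strand). Its reads were 4 and 1 in mock, 6 and 3 in siControl, 2 and 5 in siTotal1, 2 and 1 in siTotal2, 4 and 2 in siLong1, and 3 and 3 in the libraries labelled siLong2. All neighbouring groups overlapped, and a difference was not detectable at this depth. CDH1, which encodes E-cadherin, stood at 80.3 ± 5.16 CPM in mock, 97.2 ± 3.46 in siControl, 56.6 ± 1.03 in siTotal1, 92.5 ± 3.46 in siTotal2, 98.3 ± 1.31 in siLong1, with 81.2 ± 1.96 in the libraries labelled siLong2 (mean ± SD, n = 2 each).

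ZEB1, a zinc-finger repressor of E-cadherin, was higher than in siControl in every other group (ENSG00000148516, chromosome 10, 31318495 to 31529814). Its level was 3.97 and 4.26 CPM in mock, 2.08 and 1.83 in siControl, 8.75 and 8.15 in siTotal1, 6.04 and 5.79 in siTotal2, 7.90 and 9.08 in siLong1, and 3.93 and 3.77 in the libraries labelled siLong2. From low to high the groups ran siControl, siLong2, mock, siTotal2, siTotal1, siLong1, and only siTotal1 and siLong1 overlapped. Against siControl ZEB1 rose 3.61-fold in siTotal (log2 1.85, SE 0.12, adjusted p = 5.86e-15), 2.92-fold in siLong (log2 1.55, SE 0.13, adjusted p = 8.66e-13) and 2.10-fold in mock (log2 1.07, SE 0.15, adjusted p = 1.84e-07). Against mock the rise was 0.78 in siTotal (adjusted p = 1.94e-07) and 0.48 in siLong (adjusted p = 2.56e-04), but the libraries labelled siLong2 taken alone were at -0.09 against mock (adjusted p = 0.579). ZEB1 differed between the siRNAs of each pair, by 0.51 between siTotal1 and siTotal2 (adjusted p = 2.65e-04) and by 1.14 between siLong1 and siLong2 (adjusted p = 3.57e-10). The direct comparison of siTotal with siLong gave 0.31 (SE 0.08, adjusted p = 0.00205) with both siLong siRNAs and -0.27 with siLong1 alone (adjusted p = 0.0161). The antisense gene ZEB1-AS1, which overlaps the start of ZEB1, did not run parallel: it held 34 and 30 reads in siTotal1, where ZEB1 was among its highest, and 62 and 69 in siControl.

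SNAI2, the repressor also called SLUG, was near the limit of detection outside the siLong groups (ENSG00000019549, chromosome 8, 48917604 to 48921740, minus strand). Its reads were 10 and 8 in mock, 5 and 10 in siControl, 14 and 20 in siTotal1, 7 and 8 in siTotal2, 74 and 81 in siLong1, and 39 and 25 in the libraries labelled siLong2. The lowest siLong library held more SNAI2 reads than any library of the other 4 groups, although the libraries labelled siLong2 lay well below siLong1. SNAI2 rose 6.81-fold in siLong against siControl (log2 2.77, SE 0.33, adjusted p = 6.55e-09) and by 2.80 against mock (SE 0.32, adjusted p = 1.97e-09). In siTotal against siLong it fell by 2.15 (adjusted p = 1.51e-09), by 2.77 with siLong1 alone and by 1.535 with the libraries labelled siLong2 alone. The level in siLong1 exceeded the libraries labelled siLong2 by 1.23 (SE 0.26, adjusted p = 1.04e-04). For siTotal against siControl it was at 0.62 (SE 0.43, adjusted p = 0.266), a mean of siTotal1 at 1.23 (adjusted p = 0.0234) and siTotal2 at -0.0027. SNAI2 passed the filter through its reads in siLong and siTotal1, so its passing is not independent of those rises.

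S100A4 encodes a small calcium-binding protein of motile and mesenchymal cells (ENSG00000196154, chromosome 1, 153543613 to 153550136, minus strand). It stood at 101.8 and 116.1 CPM in mock, 17.6 and 20.2 in siControl, 53.4 and 58.4 in siTotal1, 99.02 and 100.5 in siTotal2, 179.5 and 181.9 in siLong1, and 51.2 and 52.7 in the libraries labelled siLong2. No neighbouring groups overlapped, and siControl was again lowest. Against siControl, S100A4 was 3.95-fold higher in siTotal (log2 1.98, SE 0.06), 5.12-fold higher in siLong (log2 2.36, SE 0.06) and 5.75-fold higher in mock (log2 2.52, SE 0.07). Against mock it was lower in siTotal (-0.54, SE 0.05) and in siLong (-0.17, SE 0.05), but siLong1 alone was higher by 0.73 and the libraries labelled siLong2 were at -1.07. The siRNAs of a pair differed by 1.80 for siLong (SE 0.06, higher in siLong1) and by -0.84 for siTotal (SE 0.06, higher in siTotal2). With the DCN libraries left out, siTotal, then siTotal1 alone, was at 1.56 against siControl. The libraries with most S100A4, those of siLong1, held 2 and 0 DCN reads. A part of the DCN reads in the S100A4 levels was not tested.

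S100A4 lies in a cluster of S100 genes on chromosome 1, and its neighbours did not all share its pattern. S100A3, whose annotated span overlaps S100A4 on the same strand, stood at 2.27 ± 0.11 CPM in mock, 2.33 ± 0.022 in siControl, 3.86 ± 0.59 in siTotal1, 1.86 ± 0.36 in siTotal2, 2.403 ± 0.085 in siLong1, with 2.47 ± 0.35 in the libraries labelled siLong2 (mean ± SD, n = 2 each). S100A5, the neighbour on the other side of S100A4, stood at 1.18 ± 0.13 CPM in mock, 0.319 ± 0.0056 in siControl, 0.754 ± 0.16 in siTotal1, 0.913 ± 0.12 in siTotal2, 3.02 ± 0.079 in siLong1, with 0.702 ± 0.048 in the libraries labelled siLong2. By edgeR's test S100A5 rose against siControl in siTotal (1.37, adjusted p = 2.00e-04), in siLong (2.18, adjusted p = 1.84e-08) and in mock (1.88, adjusted p = 3.03e-06). S100A3 was at 0.21 in siTotal, 0.07 in siLong and -0.04 in mock, with no call in these 3 comparisons.

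LGALS1 encodes galectin-1, a secreted lectin that binds matrix and cell-surface sugars (ENSG00000100097, chromosome 22, 37675608 to 37679806). Scaled to exon length in GENCODE 29, it had the highest mean level of the 9 genes, 333.7 CPM per kilobase, followed by S100A4 at 83.9 and ITGA5 at 16.05, with FN1 at 2.50, VIM at 1.04 and CDH2 at 0.016. In plain CPM it stood at 318.1 and 328.5 in mock, 199.1 and 205.6 in siControl, 405.4 and 392.4 in siTotal1, 444.5 and 410.1 in siTotal2, 531.1 and 509.3 in siLong1, and 324.9 and 332.0 in the libraries labelled siLong2. The groups ran siControl, mock, siLong2, siTotal1, siTotal2, siLong1, with overlap of mock and siLong2 alone among neighbours. LGALS1 rose 2.04-fold against siControl both in siTotal (log2 1.03, SE 0.04, adjusted p = 2.77e-22) and in siLong (log2 1.03, SE 0.04, adjusted p = 1.20e-22), and 1.60-fold in mock (log2 0.68, SE 0.04, adjusted p = 1.29e-15). Against mock it rose by 0.35 in each (adjusted p = 1.47e-09 and 2.37e-10). The means of siTotal and siLong lay -0.002 apart (SE 0.03, adjusted p = 0.966). That value averaged unlike siRNAs, since siLong1 exceeded the libraries labelled siLong2 by 0.66 (SE 0.04, adjusted p = 7.34e-16), and siTotal1 differed from siTotal2 by -0.10 (SE 0.04, adjusted p = 0.0522).

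**Figure D3:**
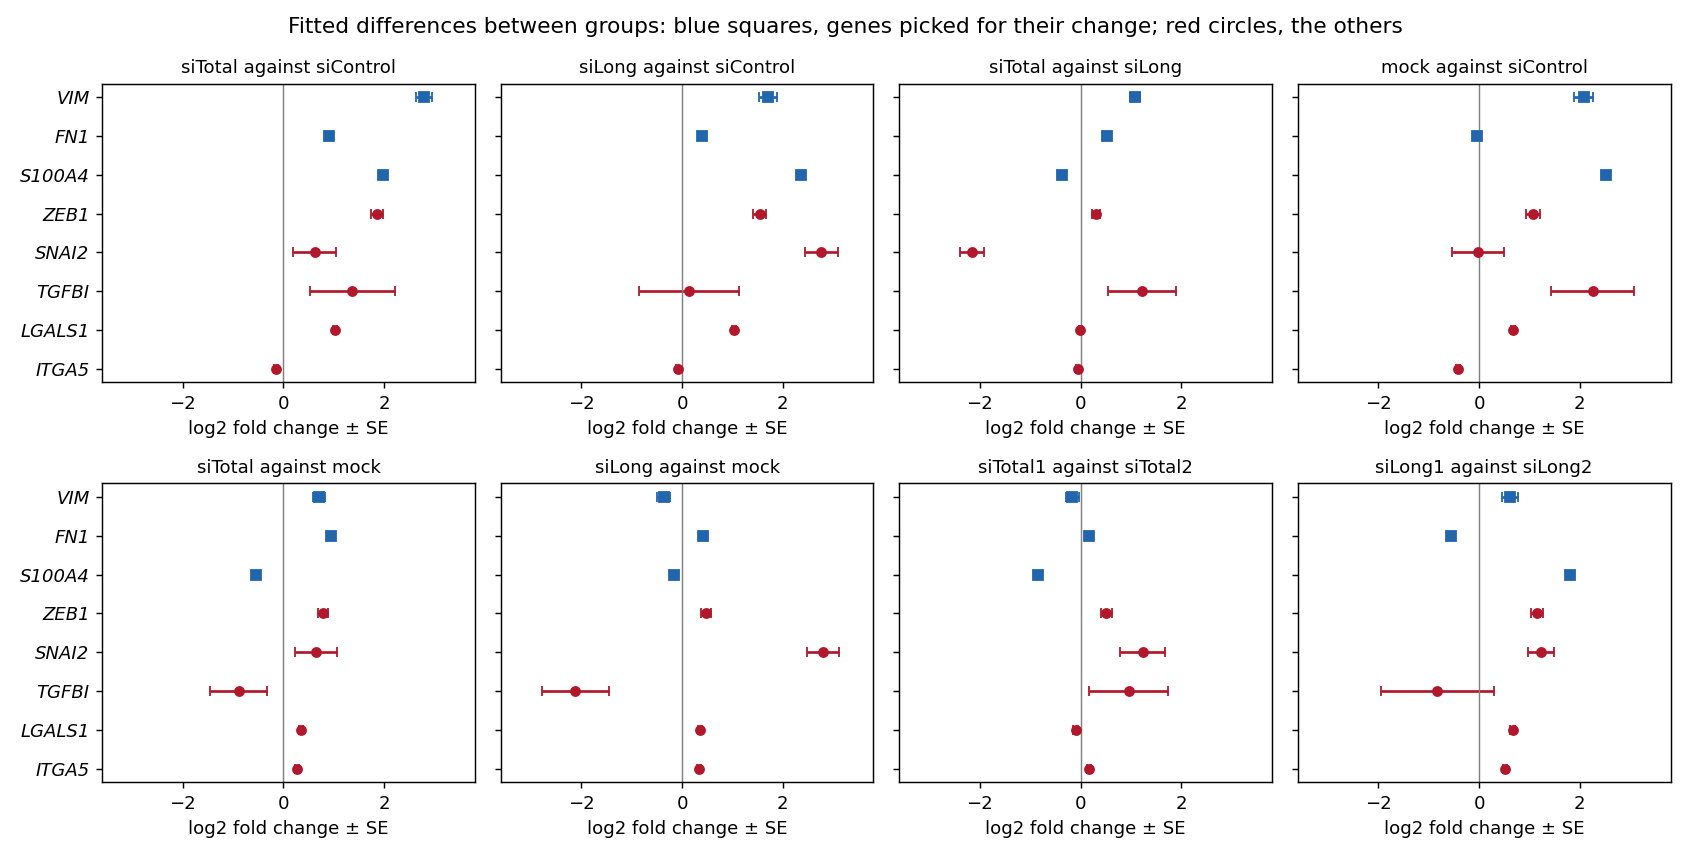
Fitted log2 fold changes (horizontal axes) with standard errors (bars) of the 8 genes with enough reads in 8 comparisons. Blue squares are VIM, FN1 and S100A4, which were picked for their changes, and red circles are the 5 tested genes. Mock against siControl shows VIM, S100A4, ZEB1 and LGALS1 above 0 as the siTotal and siLong panels do, while FN1 lies at -0.03 there, and SNAI2 lies near 0 in mock and at 2.77 in siLong.

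Counted over the 5 tested genes, 3 were called in siTotal against siControl (ZEB1 and LGALS1 higher, ITGA5 lower), where 44.2% of all 17730 genes tested were called, 22% higher and 22.2% lower. In siLong against siControl 4 were called, SNAI2 in addition, where 53.5% of all genes were, 25.1% higher and 28.4% lower. SNAI2 passed the filter through its reads in siLong and siTotal1, so its calls here and in the comparisons that follow are not independent of the filter. In mock against siControl 3 were called, ZEB1 and LGALS1 higher and ITGA5 lower, with 39.8% of all genes called, 19.5% higher and 20.3% lower. With mock as the reference 3 were higher in siTotal (ZEB1, LGALS1 and ITGA5; 30.8% of all genes called, 16.6% higher), and 4 were higher and TGFBI lower in siLong (50.8% of all genes called, 24.4% higher and 26.4% lower). The direct comparison of siTotal with siLong called ZEB1 higher and SNAI2 lower (53.4% of all genes called, 28.1% higher and 25.3% lower). Between siTotal1 and siTotal2 3 were called, all higher in siTotal1 (43.9% of all genes called, 23.3% higher and 20.6% lower), and between siLong1 and siLong2 4 (53.7% of all genes called, 26.7% higher and 27% lower), each of them higher in siLong1. These shares of all genes are high, so a count of 3 to 5 among 5 genes says little about the set. The counts given below for wider lists are to be read beside the same shares where they come from the fit over all libraries. Counts with libraries left out belong to other fits, whose shares are not given. Including the genes picked for their change, the median of the 8 fitted values was 1.197 in siTotal, 1.29 in siLong and 0.87 in mock against siControl, beside medians of 0.002, -0.012 and 0.007 over all genes tested, and nothing is read from these medians because of how the genes were picked.

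Other transition factors were few. Of 11 listed, 5 passed the filter, ZEB1 and SNAI2 among them. SNAI1, a relative of SNAI2, fell by 0.27 in siTotal and by 0.43 in siLong against siControl, and by 0.26 in mock. TWIST1 was called in none of the siTotal and siLong comparisons with siControl (0.46 and 0.07), and rose in mock by 0.67 (adjusted p = 0.0269). It was higher in siLong1 than in the libraries labelled siLong2 by 1.02 (adjusted p = 0.00183).

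Matrix protein genes other than FN1 and TGFBI changed in both directions. Of 29 tested, 12 rose and 3 fell in siTotal against siControl (median 0.30), 13 rose and 4 fell in siLong (median 0.42), and 10 rose and 7 fell in mock (median 0.39). COL5A1 had 0 reads in siControl, and setting it to the limit that 3 reads allow left these 3 medians as they are. Several collagens of this list are also fibroblast markers. With the DCN libraries left out 26 were tested, with a median of 0.17 in siTotal1 and 0.37 in siLong. Mock, then a single library, had a median of 0.14. COL18A1, a basement membrane collagen, rose by 1.17 in siTotal, 1.09 in siLong and 1.28 in mock, and the laminin gene LAMB1 by 0.87, 0.96 and 0.81. The hemidesmosome collagen gene COL17A1 rose by 2.14 in siLong against 0.63 in siTotal and 0.50 in mock. In the direct comparison of siTotal with siLong 5 were higher and 11 lower. COL17A1 was lower in siTotal by 1.51, and LAMA3, a chain of the epithelial laminin-332, was at -1.05. Both are known as adhesion genes of epithelial cells.

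Matrix-modifying enzymes and inhibitors rose in 12 of 20 and fell in 0 in siTotal against siControl (median 0.23), rose in 13 and fell in 0 in siLong (median 0.34), and rose in 11 and fell in 0 in mock (median 0.19). At an unadjusted p under 0.05 in edgeR 0, 0 and 1 were lower, and DESeq2 called 0 lower in each. With the DCN libraries left out 1 of 19 was lower in siTotal1 and 1 in siLong. LOXL2, a collagen cross-linking oxidase, rose by 0.81, 0.66 and 0.71 in the 3 comparisons, and was higher in siLong1 than in the libraries labelled siLong2 by 1.10. TGM2, transglutaminase 2, rose by 0.74 in siTotal and 0.84 in siLong and was at -0.04 in mock. TIMP3, a metalloproteinase inhibitor, rose by 0.62, 1.47 and 1.33, and TIMP2 rose by 0.73 in siTotal and by 0.11 in mock. Between siTotal1 and siTotal2 TIMP3 differed by -0.76 and TIMP2 by 0.53. TIMP2 differed between the siLong siRNAs by 2.19 (adjusted p = 2.78e-30), at 263.8 ± 13.1 CPM in siLong1 but 57.7 ± 0.14 in the libraries labelled siLong2 against 129.9 ± 1.47 in siControl (mean ± SD, n = 2 each), so its siLong mean of -0.07 describes neither.

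Among 9 integrin genes other than ITGA5, 5 rose and 2 fell in siTotal against siControl (median 0.24), 7 rose and 1 fell in siLong (median 0.27), and 2 rose and 1 fell in mock (median -0.08). ITGA2, the alpha chain of a collagen receptor, fell by 1.42 in siTotal and by 1.23 in mock, and rose by 0.17 in siLong. In ITGA2 siLong1 and the libraries labelled siLong2 differed by -0.33 (adjusted p = 4.60e-08), and siTotal1 and siTotal2 by -1.16. ITGB5, a partner of the alpha-V chain, rose by 0.90 in siTotal, 0.27 in siLong and 0.17 in mock. It was higher in siTotal1 than in siTotal2 by 0.74. ITGB4, which pairs with ITGA6 in hemidesmosomes, rose by 0.79, 1.27 and 0.76. ITGB1, the beta partner of ITGA5, fell by 0.11 in siTotal and rose by 0.19 in siLong, more in siLong1 than in the libraries labelled siLong2 by 0.24 (adjusted p = 8.00e-06).

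Filament and actin-binding genes other than VIM rose in 9 of 14 and fell in 2 in siTotal against siControl (median 0.25), rose in 10 and fell in 3 in siLong (median 0.30), and rose in 7 and fell in 3 in mock (median 0.13). DES, which encodes the muscle filament protein desmin, rose by 1.31, 1.86 and 0.91, from a mean of 1.63 CPM in siControl. ACTA2, smooth muscle actin, rose by 0.70, 0.72 and 0.61. TAGLN, an actin-binding gene of smooth muscle, rose by 1.03 in siLong and was at 0.26 in siTotal. Between siLong1 and the libraries labelled siLong2, DES differed by -0.62, ACTA2 by -0.53 and TAGLN by 0.97. Between siTotal1 and siTotal2 ACTA2 differed by -0.67.

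S100 genes other than S100A4 rose in 6 of 10 and fell in 2 in siTotal against siControl (median 0.18), rose in 7 and fell in 1 in siLong (median 0.46), and rose in 2 and fell in 4 in mock (median -0.04). Of the 10, 6 were lower and 0 higher in siTotal than in siLong by edgeR at either p and by DESeq2 (6 lower and 2 higher with the DCN libraries left out, which leaves siTotal1 alone), among them S100A6 (-0.44) and S100A11 (-0.35). Of 4 tested genes of the galectin list other than LGALS1 (LGALS3, LGALS8, LGALS9 and LGALS3BP), 1 rose and 1 fell in siTotal against siControl. In siLong 3 rose and 1 fell, and in mock 1 rose and 1 fell. The gene that rose in siTotal and in mock was LGALS3BP, which encodes a galectin-binding glycoprotein and not a galectin. LGALS3BP was at 0.49 in siTotal, 1.16 in siLong and 0.73 in mock. With mock as the reference it was at -0.24 in siTotal and 0.43 in siLong. Of 5 tested cadherin and catenin genes, 2 rose and 2 fell in siTotal against siControl. In siLong 3 rose and 2 fell, and in mock 2 rose and 3 fell. CTNNB1, beta-catenin, was at 0.61 in siTotal, 0.53 in siLong and 0.51 in mock. With mock as the reference it was at 0.11 in siTotal and 0.03 in siLong.

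Genes of TGF-beta signalling, which induces transition factors and matrix genes in many epithelia, rose in 10 of 19 and fell in 3 in siTotal against siControl (median 0.27), rose in 9 and fell in 3 in siLong (median 0.08), and rose in 7 and fell in 4 in mock (median 0.14). The inhibitor gene SMAD6 rose by 1.79, 1.41 and 1.90. SMAD7, another inhibitor and a direct target of the pathway, rose by 1.10 in siTotal and was at 0.14 in mock. It was higher in siTotal1 than in siTotal2 by 0.75. Its rise of 0.40 in siLong joined 3.40 ± 0.58 CPM in siLong1 with 7.85 ± 0.27 in the libraries labelled siLong2, against 3.93 ± 0.50 in siControl (mean ± SD, n = 2 each), and these siRNAs differed by -1.20 (adjusted p = 1.97e-09). The ligand gene TGFB1 rose by 0.27 in siTotal, and was at -0.07 in siLong and 0.14 in mock. For siTotal against mock it was at 0.12 and not called (edgeR, adjusted p = 0.0783). Between siTotal1 and siTotal2 it differed by -0.41, higher in siTotal2, whose libraries are both rich in DCN. The part of the DCN reads in this was not tested.

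Epithelial counterparts fell in 13 of 18 and rose in 3 in siTotal against siControl (median -0.40), fell in 9 and rose in 5 in siLong (median -0.09), and fell in 11 and rose in 2 in mock (median -0.27). With mock as the reference 7 fell and 3 rose in siTotal, where 14.2% of all genes were lower and 16.6% higher, and 1 fell and 11 rose in siLong, where 26.4% were lower and 24.4% higher. CDH1, a known target of ZEB1 and SNAI2, fell against siControl by 0.43 in siTotal (adjusted p = 7.10e-11), by 0.12 in siLong (adjusted p = 0.0116) and by 0.28 in mock (adjusted p = 9.75e-06). It was lower in siTotal1 than in siTotal2 by 0.71. The CDH1 libraries of siLong1 overlapped those of siControl. A part of ZEB1 or SNAI2 in the CDH1 levels was not tested. EPCAM fell by 0.46 in siTotal, and was at -0.14 in mock and at 0.01 in siLong (adjusted p = 0.853). The siTotal siRNAs were unlike in EPCAM, with siTotal1 against siTotal2 at -0.61. KRT8 rose by 0.81 in siLong, and was at 0.14 in siTotal and 0.17 in mock. Between siLong1 and the libraries labelled siLong2 KRT8 was not called (0.09, adjusted p = 0.0766 in edgeR).

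**Figure D4:**
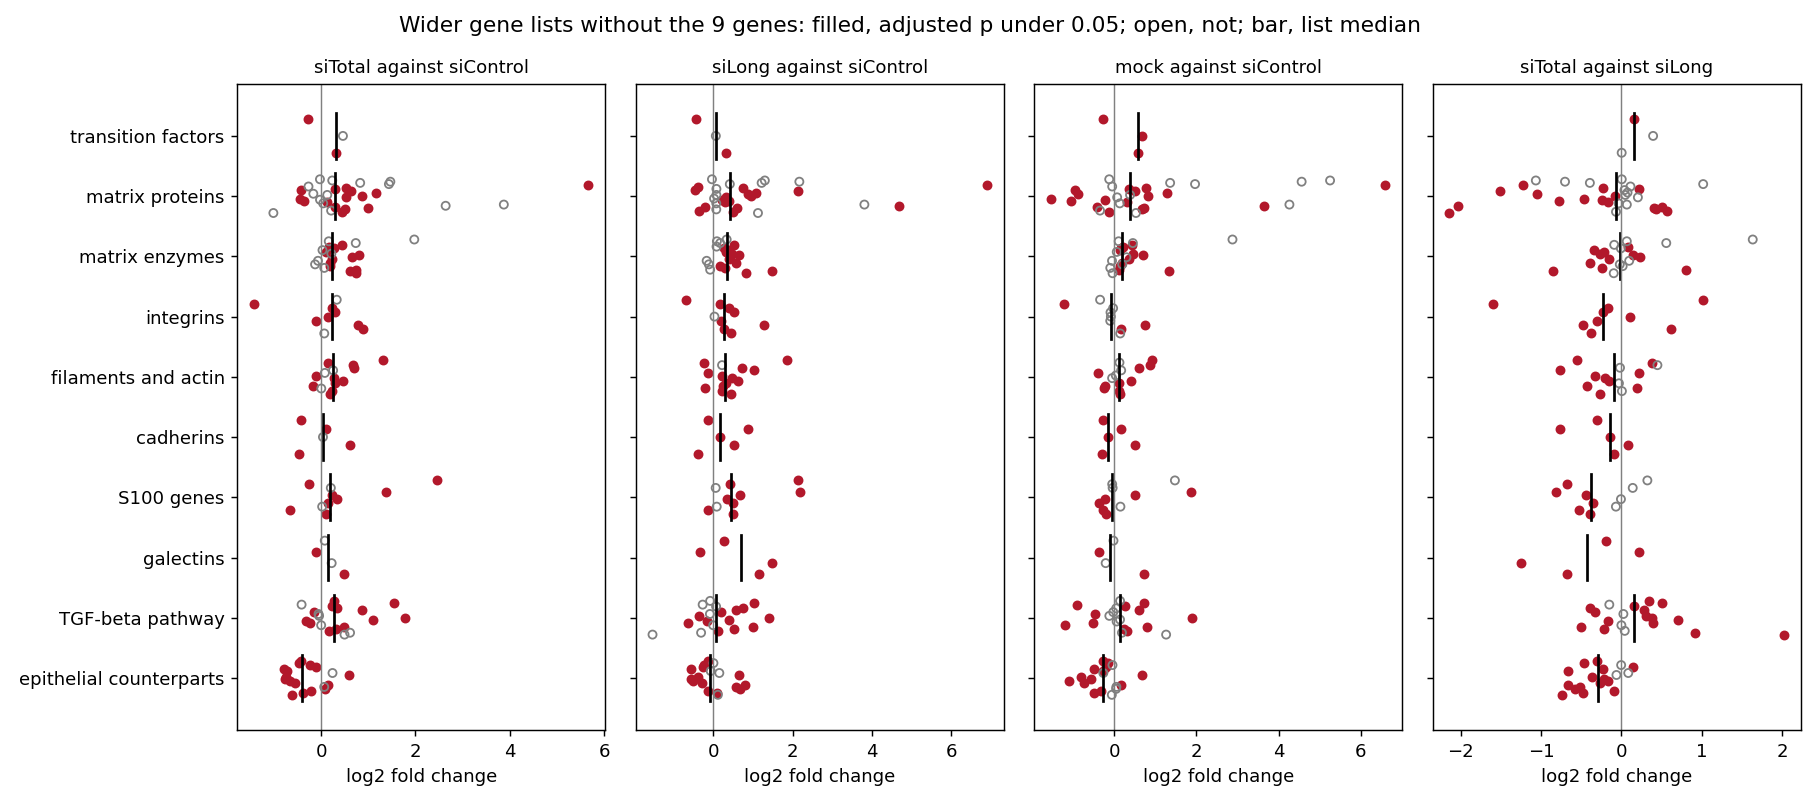
Log2 fold changes (horizontal axes) of the genes of 10 wider lists without the 9 genes described, in 4 comparisons; filled points have an adjusted p under 0.05, open points do not, and bars are list medians. Epithelial counterparts lie mostly below 0 in siTotal and mock against siControl (medians -0.40 and -0.27), and matrix enzymes have 0 called below 0 in the 3 panels against siControl.

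For each of the 8 genes the most similar level profiles were sought over the 12 libraries among the 12352 genes above a mean log2 CPM of 1, by Pearson's r of log2 CPM. These libraries share 6 groups, so r describes group differences and carries no test. Closest to VIM were ATP8B3 (r = 0.957), COPG2 and VKORC1. Closest to FN1 were GPCPD1 (r = 0.949), SMARCD1 and CERS5, and to S100A4 SEMA3G (r = 0.978), SMARCD3 and HEXIM2. ZEB1 was closest to PYGB (r = 0.983), PCIF1 and CD9. SNAI2 was closest to IRAK2 (r = 0.979), RREB1 and CCDC93, and ITGA5 to AGPAT4 (r = 0.974), WDR20 and TUFT1. LGALS1 was closest to LMNA, which encodes the nuclear lamins A and C (r = 0.989), followed by GNL1 and MCAM. TGFBI had the weakest nearest profile, FAM86EP (r = 0.844), then CD164L2 and PEX10. Among the 8 genes themselves, LGALS1 ran with ZEB1 (r = 0.94), S100A4 (0.88) and VIM (0.82), whereas ITGA5 had r of -0.17 with VIM and -0.13 with FN1, and S100A4 and FN1 had r of -0.01.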

How the data were processed

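Polyadenylated RNA of 12 HCT116 cultures was sequenced from stranded libraries. STAR 2.4.0f1, featureCounts and hg19 were used, per the submitters' processing notes. The annotation, strand setting and filters are not stated there. What the authors deposited are whole-number read counts for 63677 Ensembl identifiers, not normalized. Names were found for 52526 identifiers; positions are GENCODE 29 on GRCh38, matched by identifier.

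The filter was filterByExpr at a minimum count of 10 and a total of 15, which left 17730 genes. After TMM scaling, edgeR 4.0.16 under R 4.3.3 fitted its robust quasi-likelihood model to the 6 groups, which leaves 6 residual degrees of freedom. P-values were adjusted by Benjamini-Hochberg over all genes tested, with calls under 0.05. In simulated counts of siTotal and siControl with 17219 genes tested, the share recovered was 54% for changes of 1.2-fold, 88% for 1.5-fold and 100% for 2-fold, and 14 of 185 calls were false. Changes were planted in 50 genes of each size, all above a mean of 1 CPM, with the other genes unchanged. The shares do not cover SNAI2 and TGFBI, which lay below 1 CPM in siTotal and siControl. Both libraries of each group differed beyond sampling (1.87 to 7.90 as chi-square over its degrees of freedom), so none was a copy. Alternatives were DESeq2 1.42.0, RLE scaling, 2 other filters, fits of the compared groups only, a replicate block and leaving out each library; single siRNAs and omission of the 4 DCN libraries were added after the data were seen. From each wider list, genes named were the largest called changes, up to 3 in each direction, above a mean log2 CPM of 1; TWIST1, TGFB1, EPCAM, S100A3 and S100A5 were chosen after their values were seen. Not every gene this rule picks is reported here. The 9 genes and the lists were chosen with earlier results of these data known.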

Additional observations from a re-analysis of the deposited data

Results flagged for a closer look

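Libraries made with different siRNAs to the same target differed in several of the tested genes, by edgeR's direct test between the siRNAs with Benjamini-Hochberg adjustment. Between siTotal1 and siTotal2, ZEB1 differed by 0.51 (log2), SNAI2 by 1.24 and ITGA5 by 0.17, each higher in both siTotal1 libraries (adjusted p = 2.65e-04, 0.0230 and 0.00104). The SNAI2 difference was not called with DESeq2 (adjusted p = 0.0759). SNAI2 passed the filter through its reads in siLong and siTotal1, which limits its calls in both pairs. Between siLong1 and the libraries labelled siLong2, ZEB1 differed by 1.14, SNAI2 by 1.23, LGALS1 by 0.66 and ITGA5 by 0.51, each higher in both siLong1 libraries (adjusted p = 3.57e-10, 1.04e-04, 7.34e-16 and 1.20e-12). Groups of 2 libraries are too small for a check of single outlying libraries.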

How the results depend on the processing

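Over the alternatives listed under processing, other than the added ones, 1068 values of single genes kept their direction and call, 23 gained and 22 lost a call, 17 without a test moved and 11 reversed; the cause was not tested. Leaving out 1 library gave 3505 to 5705 genes called in siTotal against mock (3505 without mock replicate 1) and 2 to 5 of the tested genes in siTotal1 against siTotal2. The leave-one-out log2 ranges that crossed 0 were -0.067 to 0.29 for TGFBI in siLong against siControl, -0.036 to 0.022 for LGALS1 in siTotal against siLong, -0.0954 to 0.024 for FN1 and -0.45 to 0.57 for SNAI2 in mock against siControl, -1.605 to 0.96 for TGFBI in siTotal against mock and -0.63 to 0.00101 for VIM in siLong against mock. The replicate numbers did not pair the libraries (r of replicate differences between groups -0.261 to 0.239), and with the replicate block siTotal against siControl called 7846 genes and siLong against siControl 9524, and no call of the 8 fitted genes changed. Among the settings chosen after seeing the data, siTotal against siLong called 4 of 5 tested genes with siLong1 alone and 4 with siLong2 alone. Of all 17730 genes tested, 9820 and 9003 were called there. With siLong2 alone, siLong against mock called 1 of the 5 tested genes, and 8912 of all genes. Values that turned sign with siLong1 alone were TGFBI -0.28 and ITGA5 0.17 in siLong against siControl, ZEB1 -0.27 in siTotal against siLong and S100A4 0.73 in siLong against mock. With siLong2 alone they were S100A4 0.52, LGALS1 0.33 and ITGA5 0.20 in siTotal against siLong and ZEB1 -0.094 in siLong against mock. With siTotal2 alone they were SNAI2 -0.0027 in siTotal against siControl, and S100A4 0.042 and LGALS1 0.048 in siTotal against siLong, and with siTotal1 alone ITGA5 0.027 there. With the DCN libraries left out, where siTotal is siTotal1 alone and mock 1 library, they were TGFBI -0.061 in siLong against siControl and 1.44 in siTotal against mock, and ITGA5 0.034 in siTotal against siLong. Depth limits SNAI2, TGFBI and CDH2, which held under 100 reads in every library.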
